A study of Mus musculus with 2 samples.

Results

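Genes for proteoglycans and for matrix proteins other than collagens were compared between the telencephalon and the whole body of wild-type mouse fetuses. The set holds 42 genes, taken by gene symbol from a table of 43437 genes, and all 42 symbols were found. Both samples came from ICR mice, an outbred stock, at E12.5, in midgestation, and without treatment. The labels do not give the number or sex of the fetuses in a library, or whether the whole body kept its head. There was 1 library of polyadenylated RNA for each tissue, so no difference has a replicate check and no p-value is given. All values describe these 2 libraries.

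The extracellular matrix of most organs is built on fibrillar networks with elastic fibres and small leucine-rich proteoglycans, which are made by fibroblasts, cartilage cells and smooth muscle. Brain tissue largely lacks this fibrous scaffold. Its matrix rests on hyaluronan, to which large chondroitin sulfate proteoglycans called lecticans bind, with link proteins that fasten the contact and tenascins that cross-link it. Basement membranes, the thin sheets under the pial surface and around blood vessels, are the main sites in the brain where nidogens and perlecan are laid down.

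Values are FPKM, fragments scaled to the length of the transcript and to the number of mapped fragments, so levels can be compared between genes of different length. Depth was read from the spacing of low values, which gave about 29300000 fragments for whole body against 22800000 for telencephalon, and all fragment numbers are estimates on that basis. A difference is the log2 of the telencephalon value over the whole-body value after 1 FPKM was added to each, and a gene was called at 2-fold on that scale if it reached 1 FPKM in either library. Folds and percentages are ratios of FPKM. Intervals are 95% exact binomial intervals of the fragment estimates, rescaled to the FPKM ratio, and they cover counting error only. In genes with several isoforms the FPKM ratio can differ from the ratio of fragments at equal depth, and the intervals leave that out. The tissue labels matched the markers: of 6 telencephalic transcription factor genes 5 were higher there by 2-fold or more and none lower, and they summed to 727 FPKM, against 40.3 in whole body.

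The matrix genes separated by role. Of the 42 genes 41 reached the floor, 23 of them in both libraries, 17 in whole body alone and 1 (Tnr) in telencephalon alone. Those that passed in one library alone tend to differ by the way they passed. Neurocan and Cspg5 exceeded their whole-body level 2-fold or more, that is 2 genes, where 9.39% of all 14987 measured genes were higher. At least 2-fold lower were 34 genes, where 21.2% of all measured genes were lower. Without the floor the counts over all 42 genes were again 2 and 34, beside 5.68% higher and 12.8% lower of 24807 genes. That outcome was fixed in advance, since a gene below 1 FPKM in both libraries cannot reach 2-fold with 1 FPKM added. It is therefore no check on the genes that passed in one library alone. The median log2 ratio was -3.41 for the members and -0.16 for all measured genes. Bcan, Tnr, Vcan, Hapln3 and Agrn lay within 2-fold, and Tnxb, a tenascin of connective tissue, stayed below the floor with 0.191 FPKM in whole body against 0.0898 in telencephalon.

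**Figure D1:**
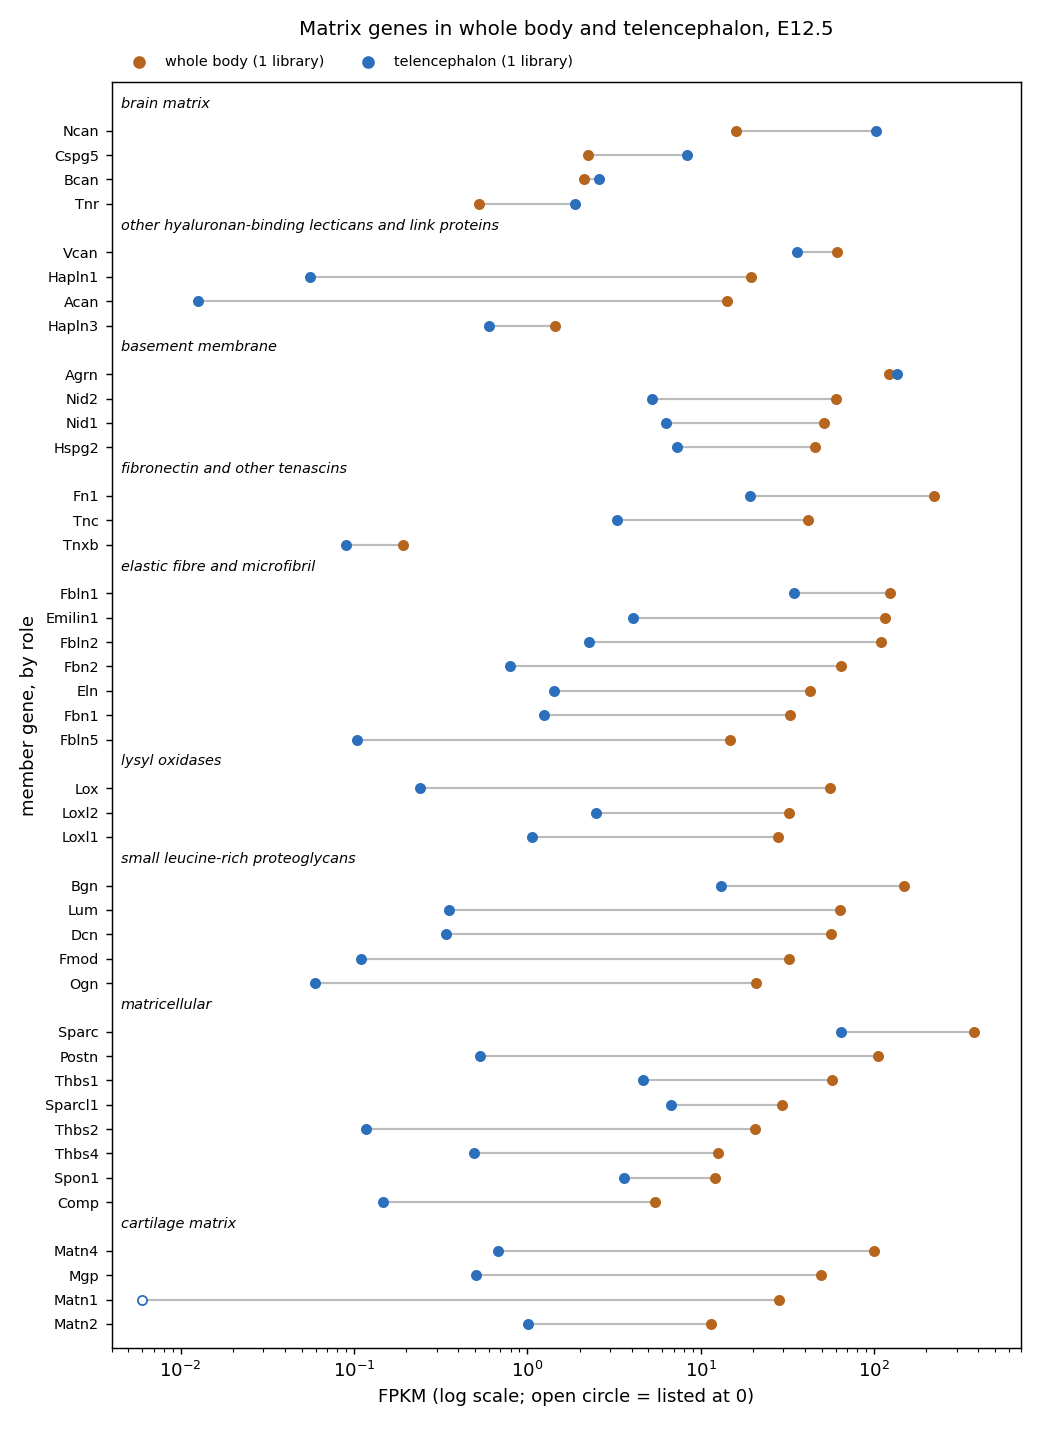
FPKM of the 42 matrix genes on a log axis, grouped by role, with brown points for the whole-body library and blue points for the telencephalon library. The 4 brain matrix genes have the blue point to the right, Agrn has both points close together (122 and 136 FPKM), and in every other gene the blue point lies to the left. Matn1, listed at 0 in telencephalon, is drawn as an open circle at the left edge.

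The summed FPKM of the 42 genes was 2410 in whole body and 476 in telencephalon, and its makeup differed. The 4 brain matrix genes Ncan, Bcan, Tnr and Cspg5 held 0.869% of the sum in whole body and 24.4% in telencephalon. The 4 basement membrane genes held 11.6% and 32.5%, and agrin alone held 5.04% and 28.5%. The shares of the other 3 were lower in telencephalon, at 1.90% and 1.54% for Hspg2, 2.14% and 1.33% for Nid1, and 2.49% and 1.11% for Nid2. The connective tissue genes, the 30 of fibronectin, the other tenascins, elastic fibres, lysyl oxidases, small leucine-rich proteoglycans, matricellular and cartilage proteins, held 83.6% and 35.4%. This class is every member outside the brain matrix, basement membrane, and other lectican and link protein genes. Some of its genes, such as Sparcl1 and Spon1, are also known from neural tissue. In telencephalon agrin (136 FPKM) and neurocan (103 FPKM) ranked first and second among the 42 genes, followed by Sparc (64.9), Vcan (36.01) and Fbln1 (34.6). In whole body the order was Sparc (376), Fn1 (221), Bgn (149), Fbln1 (124) and Agrn (122), and Ncan ranked 31. Agrin and neurocan were the 2 members at 100 FPKM or more in telencephalon, against 8 members in whole body.

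**Figure D2:**
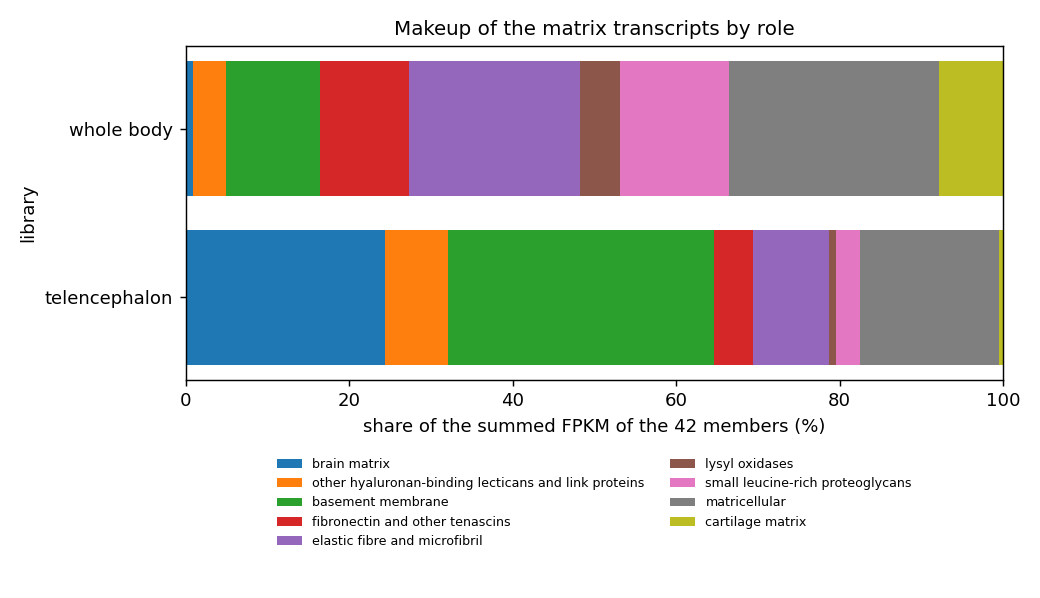
Share of the summed FPKM of the 42 genes held by each role group, 1 bar for each library. Brain matrix (blue, left) widens from 0.869% in whole body to 24.4% in telencephalon and basement membrane (green) from 11.6% to 32.5%, of which agrin alone is 5.04% and 28.5%, while small leucine-rich proteoglycans (pink) narrow from 13.4% to 2.94%.

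The brain matrix genes stood at or above their whole-body level in telencephalon, with log2 ratios from 0.21 to 2.61 and a median of 1.22. Neurocan (Ncan, chromosome 8, 70093085 to 70120873 on GRCm38), a lectican made by neurons and their progenitors, stood at 16.1 FPKM in whole body against 103 in telencephalon. The telencephalon value was 6.43-fold higher, with a counting interval from 6.20 to 6.68. Cspg5, which encodes neuroglycan C, a chondroitin sulfate proteoglycan that spans the neuronal membrane, stood at 2.24 and 8.35 FPKM (3.73-fold, interval 3.21 to 4.35). Ncan alone supplied 21.7% of the summed member FPKM in telencephalon.

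The other 2 brain matrix genes were weakly expressed. Tenascin-R (Tnr), a tenascin of the perineuronal matrix that binds lecticans, stood at 0.526 FPKM in whole body against 1.88 in telencephalon, from about 128 and 377 fragments. Its FPKM ratio was 3.57 (interval 2.91 to 4.39), but with 1 FPKM added its log2 ratio was 0.92. It passed 2-fold with a pseudocount of 0.1 FPKM (1.66), when both libraries were set to one upper quartile (1.02) or converted to TPM (1.34). Its main coding isoform, Tnr-202, stood at 0.362 and 1.24 FPKM. The retained-intron transcript Tnr-205 held 0.163 FPKM in whole body and almost nothing in telencephalon. Brevican (Bcan), a lectican that becomes abundant in the mature brain, stood at 2.11 and 2.59 FPKM, a ratio of 1.23 whose counting interval from 0.966 to 1.55 includes equal levels. Part of this value came from Bcan-203, a retained-intron transcript with 0.613 FPKM in whole body against 0.732 in telencephalon. Neural markers were higher beside these genes: 5 of 8 radial glia genes and 5 of 5 genes of early neurons were at least 2-fold higher, beside 9.39% of all measured genes. The summed levels of these lists were 1036 and 1519 FPKM and 178 and 794 FPKM, and their part in the result was not tested. In bulk RNA a difference in the number of cells of a type and a difference in RNA per cell cannot be told apart.

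The 4 lectican genes each lie next to a link protein gene in the genome, and the pairs differed from one another. Versican (Vcan, chromosome 13) kept 58.7% of its whole-body level, with 61.4 FPKM in whole body against 36.01 in telencephalon. Its neighbour Hapln1, 43.7 kb away, encodes the cartilage link protein that locks lecticans onto hyaluronan, and stood at 19.5 and 0.0558 FPKM, the latter from about 7 fragments. Hapln1 was thus 349-fold lower (interval 166 to 851), while the lectican gene beside it lay within 2-fold.

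Aggrecan (Acan, chromosome 7), the lectican of cartilage, stood at 14.2 FPKM in whole body against 0.0125 in telencephalon, the latter from about 2 fragments. The ratio was 1135 with an interval from 314 to 9393. Hapln3, whose annotated end lies 2 bases from the end of Acan on the other strand, stood at 1.44 and 0.601 FPKM, from about 37 and 12 fragments. Strand was not recorded by this kit, and reads near that boundary cannot be assigned to one gene or the other. The remaining link protein genes stayed below the floor of 1 FPKM. Hapln4, 2.22 kb from Ncan, stood at 0.105 and 0.637 FPKM, from about 10 and 48 fragments. Its ratio was 6.09 (interval 3.10 to 13.7), beside 6.43 for Ncan. Hapln4 and Ncan end toward each other on opposite strands. Whether reads from past the end of Ncan entered the Hapln4 value was not tested. Hapln2, 21.5 kb from Bcan, stood at 0.0338 and 0.238, from about 2 and 1 fragments, with an interval of the ratio that includes equal levels. No link protein gene reached 1 FPKM in telencephalon, where Ncan stood at 103 and Vcan at 36.01.

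Agrin, perlecan and the nidogens, the members of basement membranes, did not move alike. Nidogens bridge the laminin and collagen networks of these sheets. Nid1 stood at 51.5 FPKM in whole body against 6.31 in telencephalon (8.16-fold lower, interval 7.60 to 8.77), and Nid2 at 60.0 and 5.27 (11.4-fold lower, interval 10.4 to 12.4). Perlecan (Hspg2), the large heparan sulfate proteoglycan of vascular and other basement membranes, stood at 45.9 and 7.32 FPKM, 6.27-fold lower. Its coding isoforms Hspg2-201 (26.5 and 2.93 FPKM) and Hspg2-203 (18.8 and 2.30) were each lower by more than this total, which includes a short non-coding transcript. Agrin (Agrn, chromosome 4, 156165290 to 156197488), a heparan sulfate proteoglycan of basement membranes that neurons also make, stood at 122 and 136 FPKM. Its FPKM ratio was 1.12, and 3 of the 4 genes were therefore at least 2-fold lower (median log2 ratio -2.67), beside 21.2% of all measured genes. Endothelial and mural cell markers were lower beside them. In the endothelial list 7 of 8 genes were lower, with a summed level of 148 FPKM in whole body against 58.7 in telencephalon. Of 8 mural cell genes 5 were lower (299 and 48.1 FPKM). The mural list includes Cspg4 and Vtn, which are also counted below as a cell surface proteoglycan and a relative of the members. Vtn supplied 46.7 and 6.32 FPKM of that sum. None of these markers was at 0, and their part in the result was not tested.

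The isoform table showed that the near-equal agrin total was made of different transcripts. The isoforms of agrin and versican were singled out after their values were seen. Agrin has an upstream start, whose product carries the laminin-binding domain and is secreted into basement membranes, and a downstream start inside the gene, whose product is anchored in the cell membrane and is known from the nervous system. Coding isoforms from the upstream start (Agrn-206) stood at 59.5 FPKM in whole body against 42.1 in telencephalon. The other coding isoforms (Agrn-201, Agrn-202 and Agrn-203) begin inside the gene and were grouped under the downstream start. They summed to 45.5 and 73.5 FPKM. Whether they share one first base was not checked. They did not move alike: Agrn-201, a shorter form of 22 exons, stood at 20.5 and 30.3 FPKM, Agrn-202 at 16.9 and 15.6, and Agrn-203 at 8.08 and 27.6. The downstream group thus held 43.4% of coding agrin in whole body and 63.6% in telencephalon. Division of reads among isoforms of one gene is an estimate of the authors' software, and the deposited tables give it no error.

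The bases before the 2 starts are shown because the isoforms were grouped by where they begin. Both are from RefSeq (GRCm38.p6, minus strand, 250 bases ending at the base before the start, 5′ to 3′), with each CG dinucleotide in capitals. CG reads the same on both strands. The upstream window lies at chr4:156197489-156197738 and the downstream window at chr4:156186260-156186509. The RefSeq downstream start lies 358 bases before the first base of the GENCODE downstream coding isoform that begins earliest, and the upstream starts coincide.
Agrn upstream: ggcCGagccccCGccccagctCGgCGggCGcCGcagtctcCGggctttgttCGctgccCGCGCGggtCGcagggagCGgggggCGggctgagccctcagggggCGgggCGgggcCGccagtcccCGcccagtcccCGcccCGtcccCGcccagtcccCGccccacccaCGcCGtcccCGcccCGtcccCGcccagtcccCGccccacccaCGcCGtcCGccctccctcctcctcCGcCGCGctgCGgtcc
Agrn downstream: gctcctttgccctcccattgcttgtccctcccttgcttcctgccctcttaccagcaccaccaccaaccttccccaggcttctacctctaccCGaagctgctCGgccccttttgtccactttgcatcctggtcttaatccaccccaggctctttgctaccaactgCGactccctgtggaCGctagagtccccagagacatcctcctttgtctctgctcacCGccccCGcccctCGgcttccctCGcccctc
The upstream window held 35 CG dinucleotides, a number reached by 2.97% of 32851 RefSeq mouse promoter windows of the same length. The downstream window held 8, reached by 43.0%, where the median was 6. The counts describe the letters, and no factor or mark was measured at either start.

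Agrin transcripts also differed at 2 short alternative sites, called y and z. Agrin that carries the z exons is the neuronal form that gathers acetylcholine receptors at the nerve-muscle synapse, and agrin of other cells lacks them. The coding isoform with both sites filled, Agrn-203, stood at 8.08 FPKM in whole body against 27.6 in telencephalon, 3.41-fold higher. The coding isoforms that run through the z site without its exons, Agrn-202 and Agrn-206, stood together at 76.3 and 57.7 FPKM. Agrn-203 thus made up 9.57% of these isoforms in whole body and 32.3% in telencephalon. The inserted bases are those that set the isoforms apart, and they are printed in capitals from the GENCODE M21 transcript of Agrn-203, 5′ to 3′, with 12 bases of the neighbouring exons on each side.
Agrn y site: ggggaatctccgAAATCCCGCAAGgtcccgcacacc
Agrn z site: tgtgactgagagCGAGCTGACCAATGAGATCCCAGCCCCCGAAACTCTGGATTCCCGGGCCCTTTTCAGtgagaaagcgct
The y site is a single exon of 12 bases (chr4:156169546-156169557). The z site is filled by an exon of 24 bases (chr4:156168546-156168569) followed by one of 33 bases (chr4:156167777-156167809). These exons are shorter than a sequenced fragment, so their use was inferred by the authors' software from reads that cross them and from the rest of each isoform.

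Versican differed in its chondroitin sulfate attachment exons. The GAG-alpha exon (2880 bases) and the GAG-beta exon (5217 bases) carry the sugar chains, and isoforms are named by which they hold. V0, with both exons, made up 37.8% of coding versican in whole body and 38.4% in telencephalon. V1, with GAG-beta alone, made up 51.4% and 36.8%. V2, with GAG-alpha alone and known as the form of mature brain, stood at 0.330 FPKM in whole body (0.552% of coding versican) and 2.91 in telencephalon (8.49%), from about 52 and 356 fragments. V3, with neither, made up 10.3% and 16.3%. V2 was 8.83-fold higher in telencephalon while the gene as a whole was 1.70-fold lower.

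**Figure D3:**
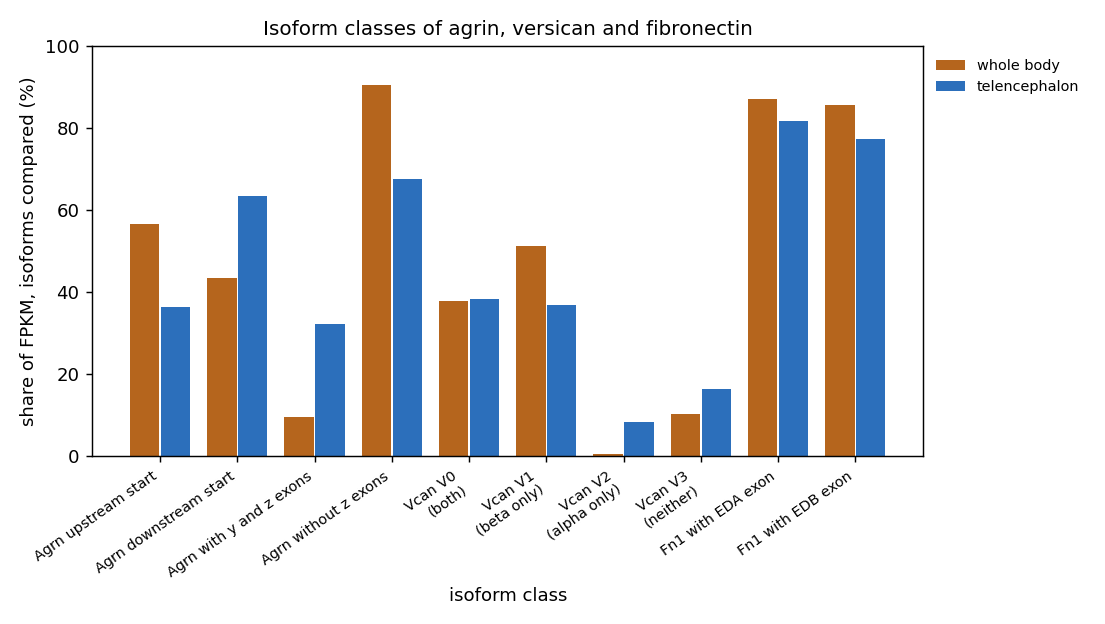
Share of FPKM held by each isoform class of agrin, versican and fibronectin, brown for whole body and blue for telencephalon, 1 library each. Shares are of the coding isoforms that span the sites compared: for the agrin starts these are 4 isoforms, and for the y and z exons the 3 that hold the exons on both sides of the z site. The blue bar is higher for the downstream start of agrin (63.6% against 43.4%), for agrin with y and z exons (32.3% against 9.57%) and for versican V2 (8.49% against 0.552%), while both fibronectin exons have high bars in both libraries.

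Of 7 members with 5 FPKM or more in both libraries and several isoforms, perlecan alone had an isoform whose share differed by 20 percentage points or more. Hspg2-202, a processed transcript of 820 bases, made up 1.42% of Hspg2 in whole body and 28.6% in telencephalon, with 0.652 and 2.10 FPKM. Because FPKM is scaled to length, so short a transcript reaches this share on few of the gene's fragments. Fibulin-1 divided its signal alike, since Fbln1-202 made up 88.2% and 89.8% of it. Fibronectin kept its embryonic exons: coding isoforms with the EDA exon made up 87.0% of coding Fn1 in whole body and 81.8% in telencephalon, and those with the EDB exon 85.5% and 77.4%.

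All 29 connective tissue genes above the floor were at least 2-fold lower in telencephalon, with a median log2 ratio of -3.91. Among all measured genes 21.2% were lower. Of the 30 connective tissue genes 15 reached 1 FPKM in telencephalon, and each of these was lower. The others above the floor passed in whole body alone, so they tend to be lower by the way they passed. The 29 genes differed widely in how much was left, from 0% for Matn1 to 29.9% for Spon1. Fibroblast markers were lower beside them. All 8 genes of that list were at least 2-fold lower, from 0.404% to 16.3% of the whole-body level, and their summed level was 1594 FPKM in whole body against 17.0 in telencephalon. Of 7 meningeal genes 5 were lower, with 196 and 38.4 FPKM in all, of which Zic1, a gene that neural tissue also expresses, supplied 31.4 and 31.8. No gene of either list was at 0, and the part of these cells in the result was not tested.

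Fibronectin (Fn1), the adhesion protein to which integrins bind, stood at 221 FPKM in whole body against 19.3 in telencephalon, 11.5-fold lower (interval 11.1 to 11.9). Tenascin-C (Tnc), which radial glia of later stages and mesenchyme express, stood at 41.5 and 3.29 FPKM, 12.6-fold lower (interval 11.5 to 13.8). Tenascin-C and tenascin-R therefore lay on opposite sides of equality, with log2 ratios of -3.31 and 0.92.

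All 7 genes of elastic fibres and microfibrils were at least 2-fold lower, beside 21.2% of all measured genes, with a median log2 ratio of -4.18. Fbn2 and Fbln5 passed the floor in whole body alone. Fibrillins form the microfibrils on which elastin is deposited. Fbn2, the fibrillin of early development, stood at 64.5 FPKM in whole body against 0.792 in telencephalon, and Fbn1 at 32.8 and 1.24, so that Fbn2 was 81.4-fold and Fbn1 26.4-fold lower. Elastin (Eln) stood at 42.9 and 1.43 FPKM, and Emilin1, a glycoprotein at the edge of elastic fibres, at 115 and 4.07. The fibulins, which tie elastin to microfibrils and basement membranes, spread from 141.7-fold lower for Fbln5 (14.7 and 0.104 FPKM, about 13 fragments in telencephalon) through 48.6-fold for Fbln2 (110 and 2.27) to 3.58-fold for Fbln1 (124 and 34.6). Fbln1 was the one member of the group above 5 FPKM in telencephalon.

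The lysyl oxidases, enzymes that cross-link collagen and elastin, were lower by different amounts. Lox stood at 55.4 FPKM in whole body against 0.241 in telencephalon, 229.6-fold lower (interval 152 to 353). Loxl1, which acts on elastin, was 26.2-fold lower (28.0 and 1.07 FPKM), and Loxl2 12.9-fold lower (32.3 and 2.50).

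Among the small leucine-rich proteoglycans, which coat collagen fibrils, 4 of 5 kept less than 1% of their whole-body level. Lumican (Lum) stood at 64.0 FPKM in whole body against 0.354 in telencephalon, and decorin (Dcn), its neighbour on chromosome 10 at a distance of 47.0 kb, at 56.6 and 0.340. Fibromodulin (Fmod) stood at 32.4 and 0.110 FPKM. Osteoglycin (Ogn) stood at 20.9 and 0.0598, from about 3 fragments in telencephalon, a ratio of 349 with an interval from 121 to 1717. Biglycan (Bgn) was the exception with 149 and 13.1 FPKM, 11.3-fold lower, and it held most of the 14.0 FPKM that the group summed to in telencephalon.

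The matricellular genes, whose proteins modulate contacts between cells and matrix, kept from 0.504% to 29.9% of their whole-body level. Periostin (Postn), of periosteum, valves and other dense mesenchyme, stood at 106 FPKM in whole body against 0.534 in telencephalon (198-fold lower). Thbs2 stood at 20.7 and 0.118 (175.6-fold lower), whereas its relative Thbs1, which activates latent TGF-beta, stood at 57.4 and 4.62 (12.4-fold lower). Thbs4 stood at 12.52 and 0.491, and Comp, the thrombospondin of cartilage and tendon, at 5.47 and 0.147 on about 7 fragments in telencephalon.

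At the other end of the group were Sparc, Sparcl1 and Spon1. Sparc, a collagen-binding protein of mesenchyme and blood vessels, was the most abundant member in whole body with 376 FPKM and kept 64.9 in telencephalon (17.3% of the whole-body level). Its relative Sparcl1, also known from radial glia and brain vessels, stood at 29.3 and 6.77 FPKM (23.1%). Spon1, which encodes F-spondin of the floor plate, stood at 12.03 and 3.60 (29.9%). The median percentage kept was 32.1% for endothelial markers, 25.0% for mural cell markers, 21.7% for microglia and macrophage markers and 1.82% for fibroblast markers. The part of these cells in the levels of the 3 genes was not tested.

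Of the 4 cartilage matrix genes, Matn1, Matn4 and Mgp kept from 0% to 1.01% of the whole-body level. Matn1, a matrilin of cartilage, stood at 28.4 FPKM in whole body and was listed at 0 in telencephalon. Set against an assumed 3 fragments in that library, it would be 359.6-fold lower. The 95% interval used for the other genes reaches down to 295-fold. Matn4 stood at 99.6 and 0.681 FPKM (146-fold lower). Mgp, an inhibitor of calcification in cartilage and vessel walls, stood at 49.7 and 0.503, the latter from about 3 fragments of a 617-base transcript, a ratio of 98.8 with an interval from 35.9 to 514. Matn2, which is not restricted to cartilage, stood at 11.5 and 1.01 FPKM. Of 8 cartilage markers 7 were at least 2-fold lower, beside 21.2% of all measured genes. The summed level of the markers was 879 FPKM in whole body against 40.7 in telencephalon, with none at 0. Their part in the result was not tested.

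**Figure D4:**
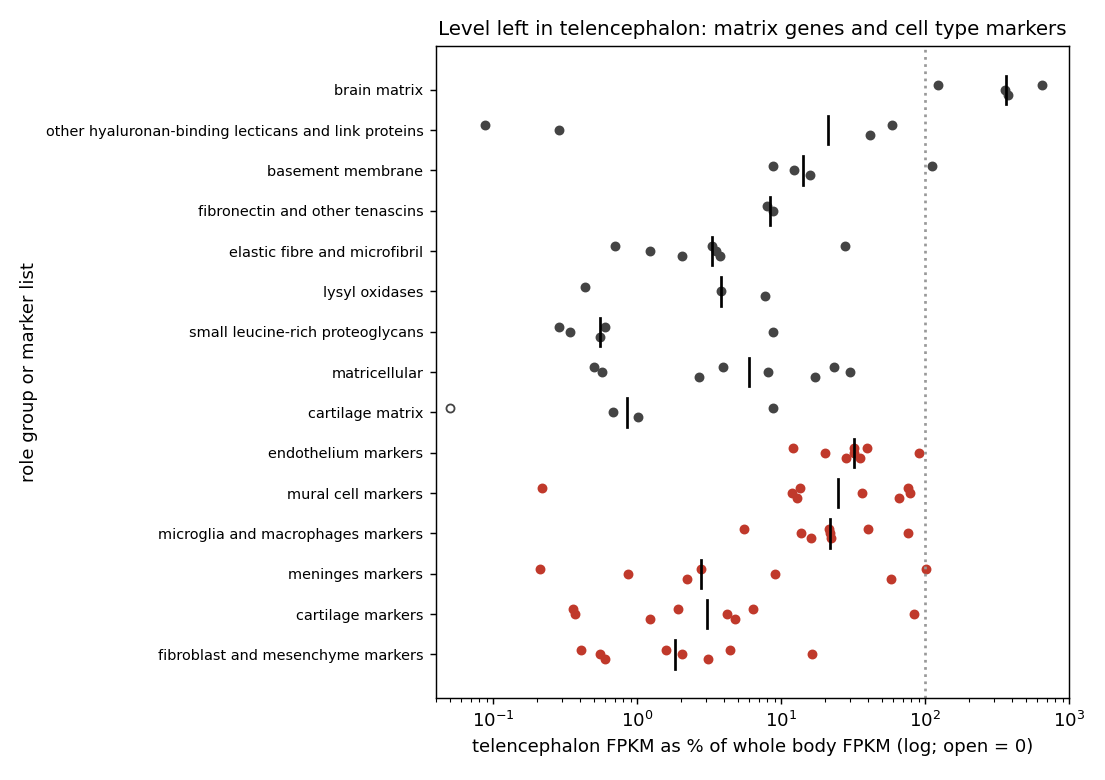
Telencephalon FPKM as a percentage of whole-body FPKM on a log axis for the measured members of each role group (black) and for markers of other cell types (red), with the median as a vertical bar and equal levels as a dotted line. The 4 brain matrix genes lie right of the line, the medians of the small leucine-rich proteoglycans (0.553%) and fibroblast markers (1.82%) lie near the left, and basement membrane genes (14.1%) lie between those and the endothelial markers (32.1%).

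The genes that make and hold the sugar chains of this matrix were examined next. Hyaluronan is spun out at the cell surface by 3 synthases, and these differed in direction. Has3 stood at 0.985 FPKM in whole body against 13.7 in telencephalon (13.9-fold higher), whereas Has2, the synthase of heart cushions and limb mesenchyme, stood at 5.92 and 0.608 (9.74-fold lower), and Has1 stayed below 1 FPKM in both. The receptors Cd44 (7.73 and 0.351 FPKM) and Lyve1 (4.99 and 0.0387), the latter of lymphatic vessels and macrophages, were lower. Tmem2, a hyaluronidase of the cell surface, stood at 19.7 and 24.2. Of 11 measured genes of the hyaluronan list 1 was higher and 4 lower (median log2 ratio -0.32). Of all measured genes 9.39% were higher and 21.2% lower.

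Enzymes that build chondroitin sulfate were mostly within 2-fold. Of 22 genes 6 were lower and none higher (median -0.75), beside 21.2% and 9.39% of all measured genes. Those farthest down were Dse (17.9 and 1.04 FPKM) and Chst14 (30.9 and 3.77), which turn chondroitin into dermatan sulfate, the chain of decorin and biglycan, and Chst13 (4.46 and 0.134), a sulfotransferase. Enzymes that build or modify the linker between chain and core protein lay on both sides of equal levels, all within 2-fold on the log2 scale with 1 added. B3galt6 stood at 4.90 and 10.7 FPKM, B3gat3 at 22.4 and 32.2, and B4galt7 at 12.7 and 14.0. Fam20b stood at 14.3 and 13.2 FPKM, Xylt1 at 4.01 and 3.37, and Xylt2 at 16.9 and 9.10.

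Heparan sulfate enzymes, on which agrin, perlecan, glypicans and syndecans depend, were likewise mostly within 2-fold. Of 21 genes 6 were lower and none higher (median -0.33), beside 21.2% and 9.39% of all measured genes. The endosulfatases Sulf1 (50.4 and 1.86 FPKM) and Sulf2 (129 and 20.7), which trim sulfates from finished chains outside the cell, were 27.1-fold and 6.26-fold lower, and the sulfotransferase gene Hs3st3b1 8.63-fold lower. Ndst3 (1.09 and 3.04 FPKM) and Ndst4 (0.560 and 1.66), which start sulfation of the chain, lay just within 2-fold on the log2 scale with 1 added.

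Proteoglycans of the cell surface went both ways. Of 12 measured genes 3 were higher and 7 lower (median -1.73), beside 9.39% and 21.2% of all measured genes. Ptprz1, a receptor phosphatase that carries chondroitin sulfate and binds tenascins, stood at 4.68 FPKM in whole body against 49.9 in telencephalon (10.7-fold higher). Gpc2, a glypican of developing neurons, stood at 48.7 and 131, and Gpc1 was the other higher gene at 62.8 and 164. Gpc3, a glypican that restrains growth in trunk organs, was 110.4-fold lower (446 and 4.04 FPKM), Tgfbr3 84.8-fold and Sdc2 8.77-fold.

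**Figure D5:**
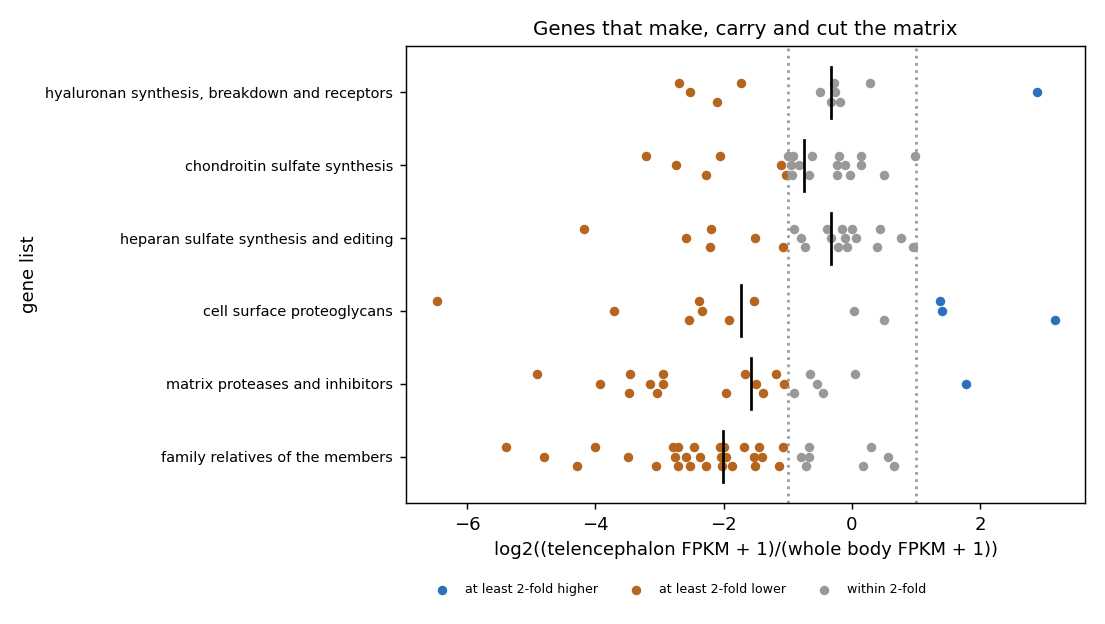
Log2 ratio of FPKM + 1 for the measured genes of 6 lists that make, carry or cut the matrix or belong to families of the members, with blue for genes at least 2-fold higher in telencephalon, brown for lower and grey for those between the dotted lines. Black bars are medians, from -0.32 for the hyaluronan list to -2.01 for family relatives, and the 5 blue points are Has3, Gpc1, Gpc2, Ptprz1 and Mmp24.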

How the data were processed

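RNA-seq was made from 1 whole-body and 1 telencephalon library with a TruSeq v2 kit on a HiSeq 2000, per the labels' protocols. The deposited values are FPKM per gene and per isoform, made by the authors with TopHat, Cufflinks and Cuffdiff on GRCm38, per the submitters' processing notes. Versions and the annotation release are not given in the sources used here. As FPKM are not counts, no count model was run.

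Coordinates and transcript lengths came from GENCODE M21, of the same build, by gene identifier (42276 genes matched). Depth was read from single-isoform genes, whose FPKM steps fall with length after 320 and 338 bases were subtracted. Among values under 30 fragments on transcripts of 2000 bases or more, 90.5% and 88.0% came out whole within 0.1. These include genes used in the fit, so the check is partly circular.

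Log2 ratios used a pseudocount of 1 FPKM, a floor of 1 FPKM in either library and a threshold of 2-fold, with Python 3.11.15 and pandas 2.3.3. The counting was tested on simulated data. RefSeq promoters were found for 26 members. The members and lists were chosen with earlier results of these data known. From each list outside the members the text names 3 genes with the most extreme log2 ratio on the side of the list median, and 2 from the opposite end. Genes of lists named beyond these, and the isoform classes, were chosen after their values were seen. Of 203 list entries 2 (Foxc2 and Tubb3) are not analysed here. Alternatives were other pseudocounts, floors and scalings, and leaving out isoforms under 300 bases.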

Additional observations from a re-analysis of the deposited data

How the results depend on the processing

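No called member changed direction under the 7 alternatives, and at least 33 members were lower in each. The share of all measured genes that were lower ran from 9.94% with a pseudocount of 5 FPKM to 25.4% with 0.1 FPKM. Other pseudocounts and floors cannot change the sign of a ratio, so only the scalings and the omission of short isoforms could have reversed a call. With a pseudocount of 0.1 FPKM the median log2 ratios were 1.76 for brain matrix, -4.79 for connective tissue and -2.82 for basement membrane genes. With 5 FPKM they were 0.60, -2.70 and -2.18, and Ncan was the 1 higher member, beside 5.34% of all measured genes. A floor of 5 FPKM gave 2.07 for brain matrix, which then held 2 genes. A common upper quartile gave -3.76 for connective tissue and -2.48 for basement membrane, and TPM gave 1.60 for brain matrix and -4.37 for connective tissue. The median of all measured genes was -0.02 in TPM and 0.04 under the upper quartile scaling. Calls that changed were Tnr (higher with a pseudocount of 0.1, a common upper quartile or TPM), Hapln3 (lower with 0.1), and Cspg5 and Spon1 (within 2-fold with 5). Without isoforms under 300 bases no call changed.

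No paired analysis was possible because each group has 1 library, and for the same reason no replicate was left out. Below about 10 fragments, as for Acan, Hapln1, Ogn, Fmod, Comp and Mgp in telencephalon, the size of a fold is known only within a wide counting interval.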

Other observations

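Most relatives of the members outside the set were lower in telencephalon. The call at 2-fold was met by 28 of 36 measured relatives, each of them lower, and by none in the other direction (median log2 ratio -2.01). Among all measured genes 21.2% were lower and 9.39% higher. Smoc2, a relative of Sparc, stood at 43.9 FPKM in whole body against 0.0704 in telencephalon, Tgfbi at 92.3 and 2.34, and Ltbp1, which stores latent TGF-beta on microfibrils, at 44.2 and 1.33. Thbs3 (19.9 and 32.0 FPKM) and Spock2 (16.3 and 24.6), a proteoglycan of brain, lay farthest the other way. The neighbours of lumican and decorin on chromosome 10 were low too, with Kera at 2.99 FPKM in whole body and listed at 0 in telencephalon, and Epyc at 4.30 and 0.0317. Prelp, 116 kb from Fmod, stood at 6.75 and 0.147.

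Proteases that cut the matrix and their inhibitors were mostly lower. Of 20 measured genes 14 were lower and 1 higher (median -1.58), beside 21.2% and 9.39% of all measured genes. Mmp2, a gelatinase of mesenchyme, stood at 96.2 FPKM in whole body against 2.23 in telencephalon, and the secreted proteases Adamts1 and Adamts2 were 32.3-fold and 72.3-fold lower. Mmp24, a membrane protease of the nervous system, was the higher gene with 6.13 and 23.4 FPKM, and Mmp15 stood at 18.2 and 18.9.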
